A study of Mus musculus with 20 samples.

Results

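The nuclear genes of the mitochondrial respiratory chain were examined in caecum tumours grown from mouse colorectal cancer organoids. Members were all genes whose platform symbol begins with Nduf followed by a, b, c, s or v, with Uqcr, with Cox4 to Cox8 or with Atp5, together with the 4 genes Sdha, Sdhb, Sdhc and Sdhd. Each gene was read from 1 probe set that carries a single symbol, the one with the highest mean. These rules gave 87 of the 17097 genes on the array, and all 87 were among the 15556 genes that passed the filter on low values. By name 35 belong to complex I, 4 to complex II, 7 to complex III, 17 to complex IV and 17 to complex V, and 7 are Ndufaf assembly factors. Within the complexes, 72 members are subunits present in most tissues and 8 are tissue isoforms, which are Ndufa4l2, Cox4i2, Cox6a2, Cox6b2, Cox7a1, Cox7b2, Cox8b and Cox8c.

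Complexes I and II take electrons from NADH and succinate, complex III passes them to cytochrome c, and complex IV gives them to oxygen. Complexes I, III and IV pump protons across the inner mitochondrial membrane, and complex V, the ATP synthase, uses the returning protons to make ATP. Complex II is also an enzyme of the citric acid cycle, and in the colon the epithelium burns butyrate and other fatty acids through this chain.

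RNA from whole fragments of 20 tumours was hybridised with 1 array per tumour. Caecum tumours were raised in C57BL/6J mice with 5 lines of organoids (MTO). For every line there were 2 tumours of control animals and 2 of animals dosed by gavage with galunisertib, 10 mg given 2 times daily from day 11 until they were killed at 5 weeks. Galunisertib inhibits the kinase of the type I TGF-beta receptor. MTO68 and MTO93 are labelled parental with genotype LAKTP, MTO140 is labelled LiM with genotype LAKTP, MTO54 is parental LAKP and MTO207 is parental LAKT. The genotype letters are not explained in the labels. LAKP and LAKT were each represented by 1 line, so genotype and line cannot be told apart. MTO140 was injected as spheroids grown for 3 days, whereas the other lines were placed as 1 mm3 pieces of subcutaneous tumours. The design text calls the 2 tumours of a group biological replicates and places the 4 tumours of a line on 1 strip, so a line and its strip cannot be told apart either. In such bulk samples fewer cells of a type and less RNA per cell cannot be told apart.

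Array medians lay between 4.93 and 5.12 on the log2 scale, while the SD of the values of an array lay between 1.46 and 1.83. MTO68 control replicate 2 stood apart from the rest of its line, with an array SD of 1.47 against 1.76 in the other control and 1.81 and 1.82 in the treated tumours. Mean levels of the 13 tested markers of intestinal epithelium lay between 8.19 and 10.33, and those of 9 markers of striated muscle, a tissue rich in mitochondria, between 4.64 and 4.99, close to the filter level of 4.16.

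Respiratory chain transcripts read slightly higher in treated than in control tumours, but no gene passed the test. Over the 5 lines 80 of 87 members read higher with galunisertib, at a median difference of 0.29 on the log2 scale against 0.00 over all genes tested. All 72 ubiquitous subunits were higher, at a median of 0.31. With limma and the line as a block, 0 members had an adjusted p under 0.05, as did 0% of all genes. At an unadjusted p under 0.05 there were 50 members, or 57.5%, against 1238 of the 15556 genes, or 7.96%.

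Cox5a, a nuclear subunit of cytochrome c oxidase (complex IV), had the smallest p. Its control tumours read 10.04 and 9.34 in MTO68, 9.55 and 9.79 in MTO93, 10.42 and 9.97 in MTO140, 9.10 and 9.19 in MTO54, and 8.90 and 9.18 in MTO207. Its treated tumours read 10.31 and 10.23, 10.00 and 10.00, 10.50 and 10.77, 9.65 and 9.25, and 9.80 and 9.49 in the same order of lines. Both treated tumours lay above both controls in each of the 5 lines, a pattern found in 2 of all genes tested (0.0129%). In 19 genes (0.122%) both lay below both controls in each line. Cox5a was picked by p from these same values, so the pattern is no separate evidence for it. The difference was 0.45 (SE 0.10, limma adjusted p = 0.158), or 1.37-fold, and the other probe sets of Cox5a gave 0.39 and 0.39.

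Uqcrq, a small subunit of complex III, ranged from 9.17 to 10.74 in control tumours, with a median of 9.84, and from 9.71 to 11.08 in treated tumours, with a median of 10.31. Treated tumours were above controls without overlap in 4 lines and overlapped with them in MTO54. The difference was 0.50 (SE 0.12, limma adjusted p = 0.158). It was read from a probe set that may hybridise to related transcripts, and the other Uqcrq probe sets were dim, at means of 4.73, 4.03 and 3.69, with differences of -0.01, 0.04 and 0.05. Next by p came Uqcr11, also of complex III, at 0.41 (SE 0.12), Cox8a of complex IV at 0.33 (SE 0.09) and Ndufb8 of complex I at 0.37 (SE 0.11). Limma gave adjusted p = 0.287, 0.287 and 0.312 for them, and each was higher in treated tumours in 5 of 5 line means.

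**Figure D1:**
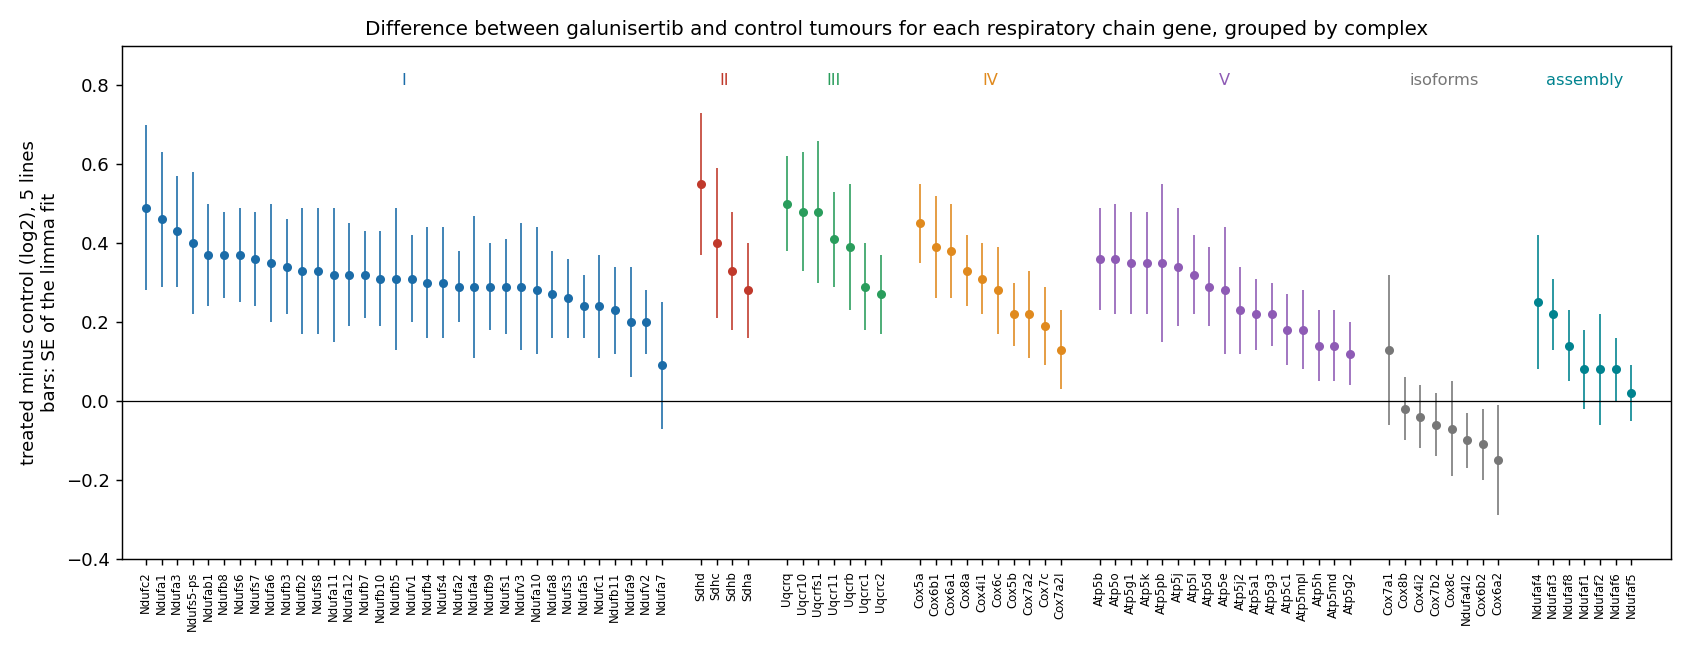
Difference between galunisertib and control tumours (log2, vertical axis) for each of the 87 genes, from the limma fit over 5 lines, with bars for the SE, grouped by complex. All 72 ubiquitous subunits lie above 0, and 7 of 8 tissue isoforms lie below it, with differences between -0.15 and -0.02.

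Each complex scored higher in treated tumours. Its score, the mean over the members of a complex of each gene centred on its mean over the 20 tumours, was higher in treated tumours by 0.30 for complex I, 0.39 for complex II, 0.40 for complex III, 0.15 for complex IV and 0.26 for complex V. The SD between tumours of a group was 0.25, 0.32, 0.28, 0.11 and 0.22 for these scores. For all genes tested the same difference was 0.02, for the assembly factors 0.12 and for the tissue isoforms -0.05. The lower figure of complex IV came with its 7 isoforms, since its 10 ubiquitous subunits were all higher, from 0.13 for Cox7a2l to 0.45 for Cox5a.

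In complex I, Ndufs1 and Ndufv1, core subunits that hold the redox centres, differed by 0.29 (SE 0.12) and 0.31 (SE 0.11). Ndufab1, the mitochondrial acyl carrier protein that is also a complex I subunit, differed by 0.37 (SE 0.13). In complex II the flavoprotein Sdha differed by 0.28, the iron-sulphur subunit Sdhb by 0.33, and the membrane anchors Sdhc and Sdhd by 0.40 and 0.55. The core protein Uqcrc1 and the Rieske protein Uqcrfs1 of complex III differed by 0.29 and 0.48. In complex IV Cox4i1, Cox5b, Cox6a1 and Cox7a2 differed by 0.31, 0.22, 0.38 and 0.22. The alpha and beta subunits of the ATP synthase, Atp5a1 and Atp5b, differed by 0.22 and 0.36. None of these 15 differences passed, with limma adjusted p between 0.325 and 0.657.

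**Figure D2:**
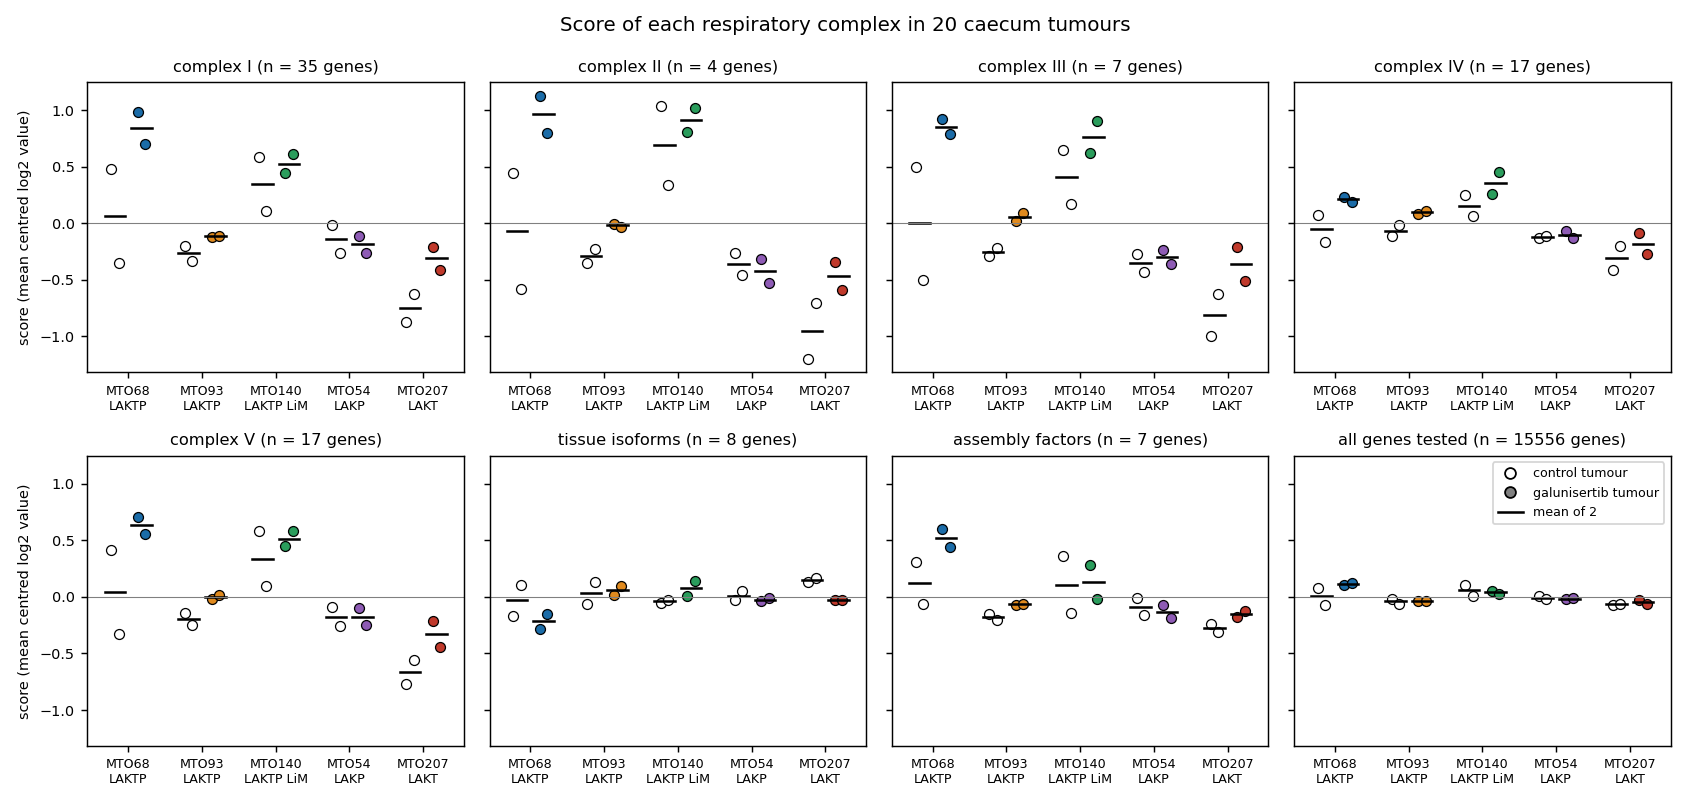
Score of each complex, of the 8 tissue isoforms, of the 7 assembly factors and of all genes tested (vertical axis, mean centred log2 value) in each tumour, by line and treatment, with bars at the mean of 2 tumours. Complexes I to III and V share a pattern with MTO68 and MTO140 high and MTO207 low, and MTO68 control replicate 2 lies far below the other 3 tumours of its line.

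Treatment differences in single lines were uneven. The score over all members was higher in treated tumours by 0.63 in MTO68, 0.34 in MTO207 and 0.18 each in MTO93 and MTO140, with a difference of -0.02 in MTO54. The array SD of treated and control tumours averaged 1.82 and 1.61 in MTO68 and 1.56 and 1.46 in MTO207, and the 2 averages differed by at most 0.05 in the other lines. Both treated tumours were above both controls for 67 members in MTO68, where 31.2% of all genes did so, for 50 in MTO93 (18.1%), for 11 in MTO140 (8.32%), for 15 in MTO54 (17.8%) and for 59 in MTO207 (26.3%). In MTO93 and MTO207 the share of members, 57.5% and 67.8%, was over that of all genes, and in MTO54 the share of 17.2% was close to it. The difference between lines passed for 0 members by the limma F test, against 0.0643% of all genes, and 5 members (5.75%) had an unadjusted p under 0.05, against 8.65% of all genes. The count of members that passed changed when MTO68 control replicate 1 was left out, and no share of all genes is given for that fit.

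By limma, 2 of 87 members rose with treatment in MTO68. That share was close to the 2.01% of all genes that passed and the 1.65% that rose. Sdhd, a membrane anchor of complex II, read 6.88 and 5.85 in controls and 8.30 and 7.60 after treatment, which differed by 1.59 (SE 0.33, adjusted p = 0.0292). Ndufv3, an accessory subunit of complex I, read 9.53 and 8.51 in controls and 10.29 and 10.05 after treatment, which differed by 1.15 (SE 0.27, adjusted p = 0.048). In both genes the treated tumours were above the controls and control replicate 2 was the lowest. These calls rest on the controls of MTO68: without control replicate 1, which leaves the low array, 75 members passed, and without control replicate 2 the count was 0. Shares of all genes without these arrays are not given. The Sdhd probe set may also hybridise to related transcripts.

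In the other lines limma called 0 members, beside 0% of all genes in MTO93, MTO54 and MTO207 and 0.00643% in MTO140. At an unadjusted p under 0.05 the counts of members were 0 in MTO93 and MTO140, where 1.09% and 3.63% of all genes were, 1 in MTO54 (1.15%, against 2.85%) and 10 in MTO207 (11.5%, against 7.53%). The smallest p in MTO207 belonged to Ndufa2, a complex I subunit, at 0.56 (SE 0.18, adjusted p = 0.646), and in MTO54 to the assembly factor Ndufaf2 at -0.59 (SE 0.25, adjusted p = 0.999).

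Levels differed between lines for most members. The limma F test over the 5 line means called 77 of 87 members, against 55.4% of all genes. It called 34 of 35 in complex I, 4 of 4 in complex II, 7 of 7 in complex III, 17 of 17 in complex V and 12 of 17 in complex IV. MTO207 had the lowest mean for 74 members, 69 of them among the 72 ubiquitous subunits, while 25.3% of all genes were lowest there. The ubiquitous subunits were highest in MTO140 for 46 and in MTO68 for 26, lines in which 50.7% of all genes peaked. In the control tumours alone the F test called 0 members. That fit used fewer arrays, and no share of all genes is given for it. Whether the line differences of members were smaller in control tumours was not tested.

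**Figure D3:**
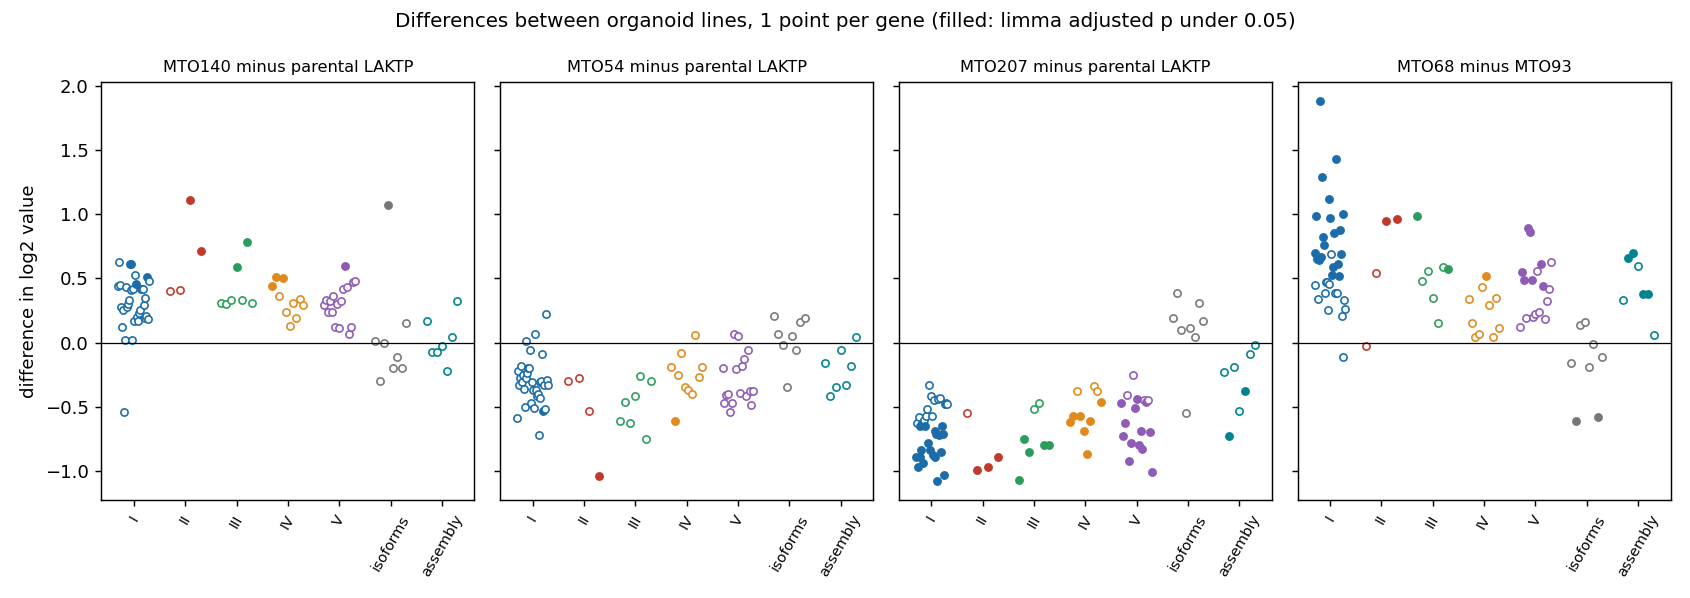
Differences in log2 value between lines (vertical axis), 1 point per gene, grouped by complex, with filled points for limma adjusted p under 0.05. For MTO207 all 72 ubiquitous subunits lie below 0 and 7 of 8 tissue isoforms lie above it. Its 51 filled points are 49 of these subunits and 2 assembly factors. For MTO140, 13 points are filled above 0.

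The LAKT line MTO207 stood below the mean of the parental LAKTP lines MTO68 and MTO93. Of 87 members 51 passed by limma and all 51 were lower, against 7.93% of all genes in either direction and 5.73% lower. They were 21 of complex I, 3 of complex II, 5 of complex III, 7 of complex IV, 13 of complex V and 2 assembly factors. The median difference was -0.60 for members and 0.00 for all genes.

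Ndufc2, an accessory subunit of complex I, had the largest difference. It read 7.16, 7.32, 7.86 and 7.78 in MTO207, 9.35, 7.73, 10.29 and 9.94 in MTO68 and 8.01, 7.61, 7.92 and 8.04 in MTO93, with controls before treated tumours. MTO207 overlapped with MTO93 and, through control replicate 2 alone, with MTO68. The difference was -1.08 (SE 0.24, limma adjusted p = 0.0203).

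Uqcr10 of complex III read 7.10, 7.70, 8.00 and 7.52 in MTO207, with a difference of -1.07 (SE 0.20). Sdhb and Sdhc of complex II differed by -0.99 (SE 0.20) and -0.97 (SE 0.22), and Ndufb9 of complex I, which had the smallest p, by -0.89 (SE 0.14, limma adjusted p = 0.00549). The count ranged from 4 to 79 when single arrays were left out, with 4 without MTO207 control replicate 1 or galunisertib replicate 2 and 79 without MTO68 control replicate 2. Of 13 epithelial markers 11 were lower in MTO207, at a median of -0.35 with 1 called. With the epithelial score as a covariate 5 members passed. The shares of all genes under this covariate and without single arrays are not given, and the part of cell makeup was not tested.

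The LAKP line MTO54 was also low, with a median difference of -0.31 from the parental LAKTP lines and 75 of 87 members lower. Limma called 3 of these 87, all lower, a share close to the 3.16% of all genes called lower. In either direction 5.84% of all genes passed. Sdhd read 5.56, 5.67, 5.82 and 5.49 in MTO54, below every tumour of MTO68 and MTO93, the lowest of which was 5.85. Its difference was -1.04 (SE 0.20, adjusted p = 0.00782). Cox5a differed by -0.61 (SE 0.15, adjusted p = 0.0305) and Ndufs6, a complex I subunit, by -0.53 (SE 0.15, adjusted p = 0.0475). Without MTO68 control replicate 2 the count was 36, and without MTO54 galunisertib replicate 2 it was 0. Beside this, 10 of 10 colonocyte markers were lower in MTO54 at a median of -0.84 with 0 called. Of 13 epithelial markers 9 were lower and 4 higher, at a median of -0.15 with 2 called lower. All 6 pericyte markers were higher, at 0.66 with 5 called. With the epithelial score as a covariate the count of members was 1, again without a share of all genes beside it. No such share is given beside the counts with an array left out. Between MTO54 and MTO207 limma called 0 members (1.27% of all genes), with 24 (27.6%) at an unadjusted p under 0.05, close to the 24.2% of all genes. The smallest p was that of Ndufv1, which was higher in MTO54 by 0.71 (SE 0.18, adjusted p = 0.0687).

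MTO140, the LAKTP line of type LiM, was above the parental LAKTP lines for some members. Of 87 members 13 passed by limma and all were higher. That share was close to the 13.5% of all genes in either direction and above the 8.66% called higher. Sdhc, a membrane anchor of complex II, read 7.94, 6.94, 7.54 and 7.78 in MTO140 and 6.92, 5.65, 7.63 and 7.43 in MTO68, and lay between 5.92 and 6.00 in MTO93. All tumours of MTO140 were above those of MTO93, but they overlapped with MTO68. The difference was 1.11 (SE 0.22, adjusted p = 0.00612), and the isoform Cox7a1, described with its values further on, came next at 1.07, before Uqcrfs1 at 0.78 and Sdhd at 0.71. Without MTO68 control replicate 1 the count was 57 and without MTO140 control replicate 1 it was 0. Epithelial markers were also higher in MTO140, with 13 of 13 above the parental LAKTP mean at a median of 0.85 and 6 called, as were 10 of 10 colonocyte markers at 1.79 with 7 called. With the epithelial score as a covariate the count of respiratory chain members was 0. The shares of all genes under this covariate and without single arrays are not given, and the part of cell makeup was not tested.

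MTO68 and MTO93 carry the same genotype label, yet 38 members differed between them, against 33.4% of all genes. Of these, 36 were higher in MTO68, where 20.6% of all genes were called higher, and the isoforms Cox6a2 and Cox8c were lower, at -0.61 (SE 0.20) and -0.58 (SE 0.17). The largest difference belonged to Ndufa4, long listed with complex I and now known as a subunit of complex IV. It read 10.22, 9.53, 11.01 and 10.52 in MTO68 and 8.55, 8.28, 8.66 and 8.27 in MTO93. It ranged from 7.79 to 9.46 in the other lines, so all 4 tumours of MTO68 were above the 16 others. The difference was 1.88 (SE 0.22, limma adjusted p = 9.26e-05), or 3.68-fold. The count over members was 15 without MTO93 control replicate 2 and 73 without MTO68 control replicate 2. Shares of all genes without these arrays are not given. All 10 colonocyte markers were lower in MTO68, at a median of -1.03 with 2 called. Of 13 epithelial markers 7 were higher and 6 lower, at a median of 0.04 with 1 called each way.

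The scores followed the spread of the array. Over 20 arrays the score of all members had r = 0.91 and rho = 0.85 with the array SD, and r = 0.88 without the 2 arrays farthest from the median. Within the 4 arrays of a line, MTO68 had r = 0.98, MTO207 0.90, MTO54 0.79, MTO140 0.74 and MTO93 -0.15. By complex r was 0.93, 0.87, 0.86, 0.73 and 0.91 for I to V. The tissue isoforms went the other way, at r = -0.73. Values of 9 hybridization control probe sets, which report spiked-in transcripts added to each sample, had r = -0.83 with the score of all members. The arrays behind these points share lines and strips, and the part of array spread in the scores was not separated from that of the tumours.

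**Figure D4:**
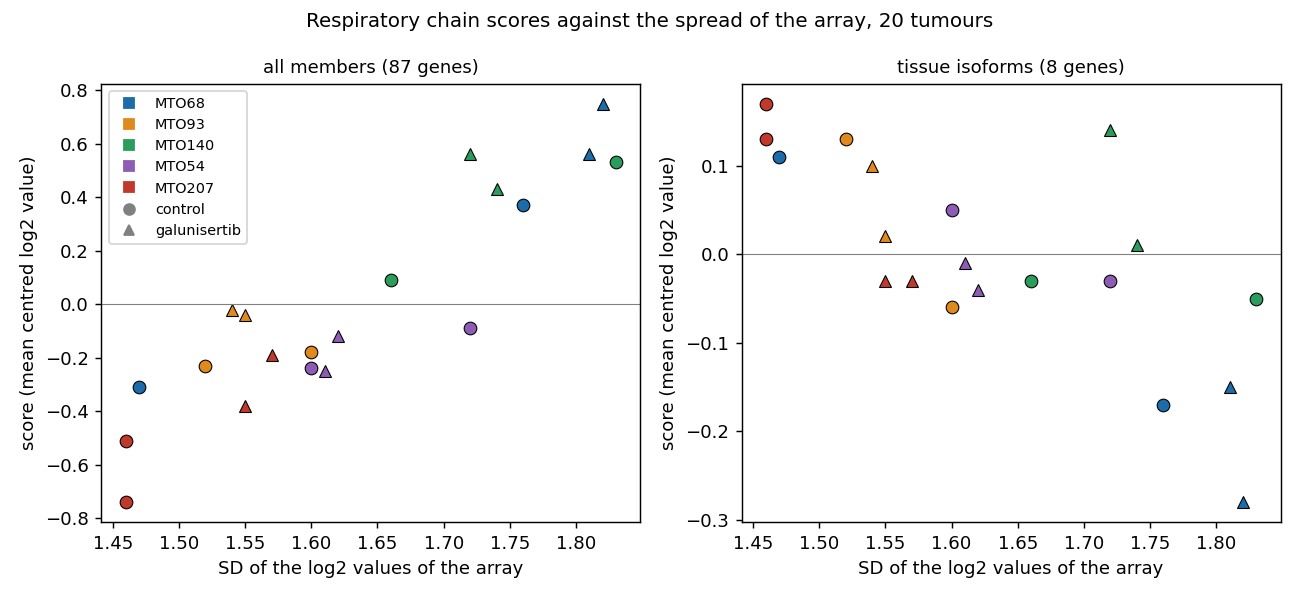
Score of all 87 genes and of the 8 tissue isoforms (vertical axes, mean centred log2 value) against the SD of the log2 values of the array (horizontal axis), with colours for the lines and shapes for treatment. The score of all members climbs with array SD over the 20 tumours (r = 0.91), and the isoform score descends (r = -0.73).

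Bright genes in general moved with array SD, and dim genes moved against it. The 8594 genes tested with a mean log2 level under 6 had a median r of -0.61 with array SD, and the 11 members there 0.30. Among genes with a mean log2 level between 8 and 10, the 1636 genes tested had a median r of 0.77 with array SD, and the 44 members there 0.85. In that band the median difference from MTO207 to parental LAKTP was -0.35 for all genes and -0.65 for members, from MTO54 0.04 and -0.34, and over treatment 0.16 and 0.32. With the array SD as a covariate, limma called 4 members over the 5 lines, against 1.07% of all genes. They were Uqcrq at 0.38 (adjusted p = 0.00834), Cox5a at 0.38 (adjusted p = 0.026), Ndufa3 at 0.28 and Cox6b1 at 0.26, all higher in treated tumours, and the median of members was 0.18. Array weights gave 5 calls (0.746% of all genes), which were Cox5a, Uqcrq, Uqcr11, Cox8a and Ndufa2. Quantile and cyclic loess normalization gave 1 call each, Uqcrq, beside 0.354% and 0.27% of all genes.

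Between lines the covariate changed the order of the contrasts. It left 47 members in the F test (27.8% of all genes), 4 in MTO207 (1.38%), 3 in MTO140 (10.8%) and 5 between MTO68 and MTO93 (7.21%), but called 41 in MTO54 (14.9%), all lower. Of the 3 in MTO140 only Sdhc was higher, while Ndufa4 and the assembly factor Ndufaf4 were lower, at -0.81 (SE 0.17, limma adjusted p = 0.00951) and -0.49 (SE 0.14, adjusted p = 0.0476). Members higher in MTO140 went from 78 to 57 of 87, and their median from 0.31 to 0.07. Those higher in MTO68 than in MTO93 went from 79 to 53, at medians of 0.46 and 0.08, and those higher in MTO54 than in MTO207 from 78 to 41, at 0.30 and -0.01. In MTO54 against parental LAKTP the sign turned for 0 members. The array SD averaged 1.64 in MTO54 and 1.51 in MTO207, and 1.72 and 1.55 in MTO68 and MTO93. Among the 41 were Sdhd at -1.04, Ndufc2 at -0.73, Uqcrb at -0.64 and Cox5a at -0.61, values nearly the same as or equal to those without the covariate. Ndufa4 was still higher in MTO68 than in MTO93, by 1.45 (SE 0.21, adjusted p = 0.0024), and Sdhc was higher in MTO140 by 0.68 (SE 0.15, adjusted p = 0.0132). Treated minus control was 0.12 for the score that remained after a straight line on array SD, whose SD over tumours was 0.17. By line this remainder differed by 0.23 in MTO93, 0.21 in MTO140, 0.12 in MTO54, 0.04 in MTO207 and 0.00 in MTO68, so the lines with the largest differences before the straight line had the smallest after it.

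The ubiquitous subunits varied together. The median r of a subunit with the mean of the other subunits over 20 tumours was 0.95, and 0.90 within line and treatment groups. All 72 were above 0.5, while 33.9% of the 15469 other genes tested were above 0.5 with the same mean. Ndufa4 had the lowest r of them, at 0.64. Assembly factors followed less closely, at a median of 0.69. Of all genes tested, 8594 had a mean under 6, and the share among genes as bright as the subunits was not taken. The score of the subunits had r = 0.91 with array SD, and the part of array spread in their shared movement was not separated.

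Tissue isoforms had a median r of -0.53 with the subunits. With array SD their median r was -0.56, and that of all genes tested with a mean under 6 was -0.61. That band does not cover Cox6a2 and Cox8c, at means of 6.52 and 6.81, which had r = -0.96 and -0.91. All genes tested with a mean between 6 and 8 had a median r of 0.57. The isoforms are forms of heart, muscle, testis or hypoxic cells, and most were dim here. Cox7b2 was above the filter level on only 3 arrays. Cox4i2, the oxygen-regulated partner of Cox4i1, read between 4.82 and 5.59 and did not pass in any comparison of lines with the parental LAKTP mean, at 0.19 (SE 0.12) for MTO207. Cox6a2, the muscle form paired with Cox6a1, had r = -0.96 with array SD, and its line means were lowest in MTO68 and MTO140, at 6.18 and 6.19. Ndufa4l2, a hypoxia-induced relative of Ndufa4, varied least over line means together with Cox6b2 and Cox8b.

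Cox7a1, the heart and muscle form of subunit 7a, was the exception. It followed the ubiquitous subunits with r = 0.75 and was highest in MTO140, which read 6.92, 5.09, 6.36 and 7.0. No tumour of another line was above 5.57. Control replicate 2 of MTO140 lay within the range of the other lines and the other 3 tumours lay above it. The difference from the parental LAKTP lines was 1.07 (SE 0.28, limma adjusted p = 0.0218). The mean score of the 9 striated muscle markers in MTO140 was -0.06, within a range of line means from -0.08 to 0.07. Colonocyte, epithelial and fatty acid oxidation scores were highest in MTO140, at 1.65, 0.94 and 0.70. The adipocyte score was also highest there, at 0.32, but rests on 3 tested markers. Of these, 1 was higher and 2 were lower than in the parental LAKTP lines, at a median of -0.14. The part of these scores in the level of Cox7a1 was not tested.

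**Figure D5:**
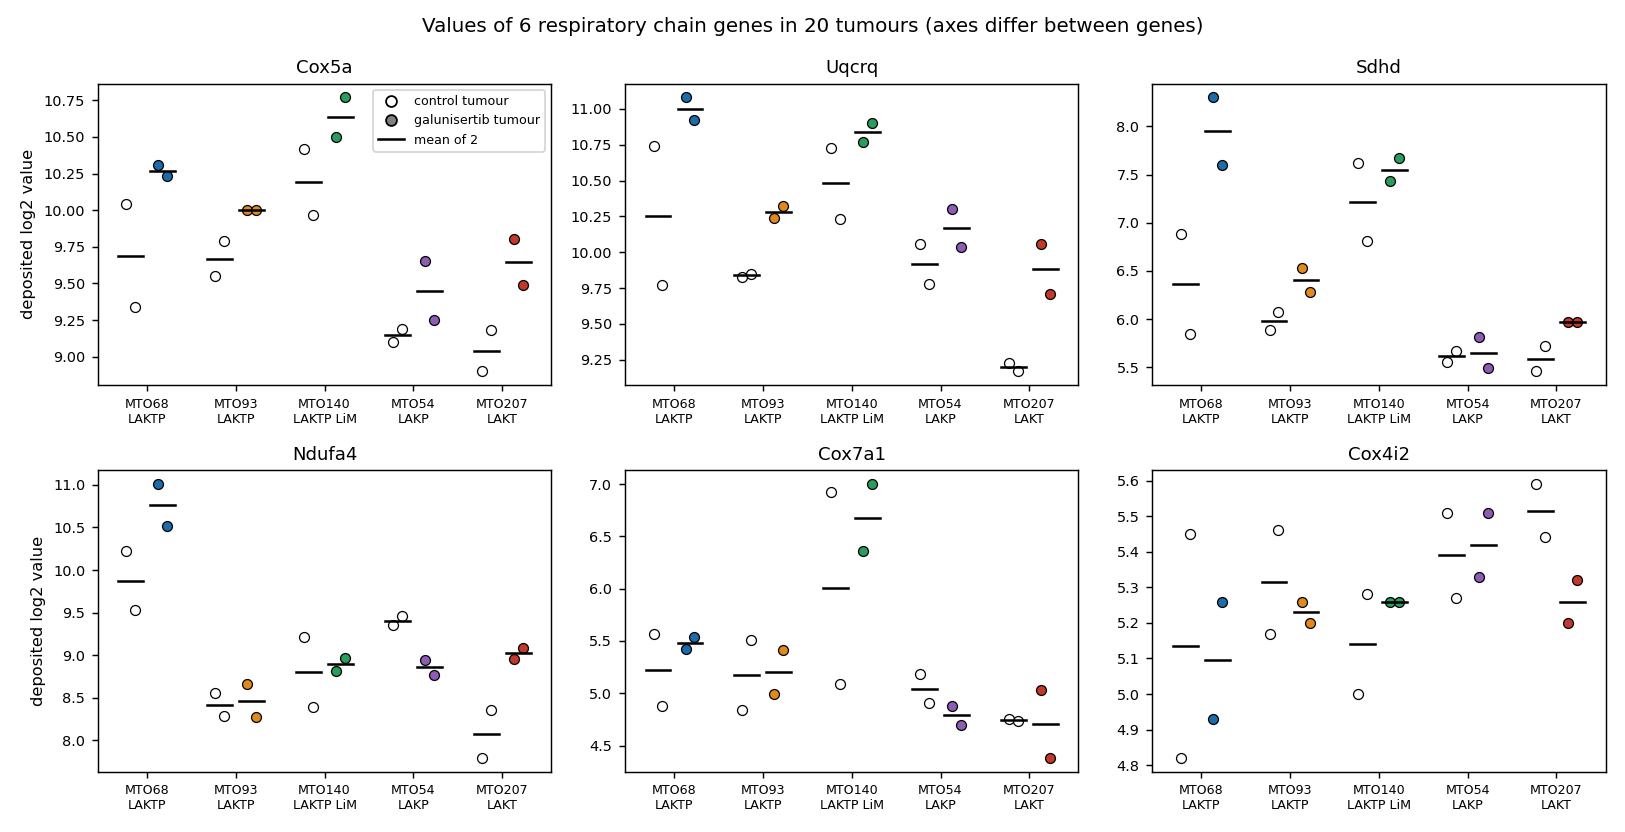
Deposited log2 values (vertical axes, which differ between genes) of Cox5a, Uqcrq, Sdhd, Ndufa4, Cox7a1 and Cox4i2 in each tumour, by line and treatment, with bars at the mean of 2. Treated tumours lie above controls in all 5 lines for Cox5a, the 4 tumours of MTO68 lie above all others for Ndufa4, and Cox7a1 peaks in 3 tumours of MTO140.

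Promoters of the members are described next, and a link between them and the shared movement of the subunits was not tested. RefSeq windows of 300 bases (250 before to 50 after the start, GRCm38.p6) were matched for 70 members. Each was searched on both strands for GCGCATGCG (core of sites of the factor NRF1), CCGGAAGT (core of ETS and GABP sites) and AAGATGGCG (core of YY1 sites). The letters of NRF1 were held by 10 of 70 members (14.3%) and by 1.95% of the 27025 genes with a window. Those of ETS were held by 4 (5.71%) and 4.31%, and those of YY1 by 8 (11.4%) and 1.64%. At least 1 of the 3 was in 21 members (30%) and in 7.48% of all genes, and in 0 of the 4 isoforms matched. NRF1 matches on both strands that overlap form a palindrome, as in Uqcrc1. These are matches of letters and no measure of binding.

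Windows of Uqcr11, Cox8a and Ndufs6 are shown since each holds letters of 1 or more factors and each gene is named above, and that of Cox7a1 since this isoform followed the subunits with no match. Capitals mark the matches, and sequences run 5′ to 3′ on the strand of the gene. Uqcr11 lies at chr10:80406772-80407071 on the minus strand, with an ETS match that begins 66 bases before the start and an NRF1 match that begins 5 bases before it. Cox8a lies at chr19:7217567-7217866 on the minus strand and holds 2 ETS matches. Ndufs6 lies at chr13:73328433-73328732 on the minus strand, with a YY1 match that begins 33 bases after the start, and Cox7a1 at chr7:30183921-30184220 on the plus strand.
Uqcr11: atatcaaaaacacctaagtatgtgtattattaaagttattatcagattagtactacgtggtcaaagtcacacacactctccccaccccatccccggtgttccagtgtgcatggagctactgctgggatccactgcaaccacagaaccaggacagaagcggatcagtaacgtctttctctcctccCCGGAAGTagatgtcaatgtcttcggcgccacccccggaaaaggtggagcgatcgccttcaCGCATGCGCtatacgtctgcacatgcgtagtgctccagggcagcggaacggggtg
Cox8a: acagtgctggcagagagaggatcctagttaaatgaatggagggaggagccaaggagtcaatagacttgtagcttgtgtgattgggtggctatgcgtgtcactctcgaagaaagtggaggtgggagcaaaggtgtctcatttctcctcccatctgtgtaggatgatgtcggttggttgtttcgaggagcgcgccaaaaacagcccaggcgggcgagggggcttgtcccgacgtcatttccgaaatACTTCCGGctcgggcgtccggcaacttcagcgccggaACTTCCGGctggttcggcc
Ndufs6: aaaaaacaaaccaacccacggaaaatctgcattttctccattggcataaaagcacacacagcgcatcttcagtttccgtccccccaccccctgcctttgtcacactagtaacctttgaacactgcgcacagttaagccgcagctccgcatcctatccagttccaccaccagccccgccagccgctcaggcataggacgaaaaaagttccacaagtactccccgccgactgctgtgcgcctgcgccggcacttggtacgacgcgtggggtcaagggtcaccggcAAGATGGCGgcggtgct
Cox7a1: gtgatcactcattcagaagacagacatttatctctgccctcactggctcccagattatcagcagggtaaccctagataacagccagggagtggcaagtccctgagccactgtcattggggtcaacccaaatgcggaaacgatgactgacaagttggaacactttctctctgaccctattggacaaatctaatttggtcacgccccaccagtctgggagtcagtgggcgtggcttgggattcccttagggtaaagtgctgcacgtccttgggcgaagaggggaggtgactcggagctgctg

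Other mitochondrial genes also read higher in treated tumours, and 0 genes of these lists passed over the 5 lines. Cyc1, the cytochrome of complex III, and Cycs, cytochrome c, differed by 0.40 (SE 0.13) and 0.32 (SE 0.12) between treated and control tumours. All 15 genes of the citric acid cycle were higher, at a median of 0.26, and so were 67 of 73 mitochondrial ribosomal proteins at 0.19, 15 of 15 import and cristae genes at 0.23 and 11 of 11 genes of fatty acid oxidation at 0.27. Of 13 glycolysis genes 8 were higher, and their median was 0.08. Among 12 regulators of mitochondrial biogenesis the median was 0.08. Esrra, a nuclear receptor that drives respiratory genes, differed by 0.33 (SE 0.10, limma adjusted p = 0.364), Nrf1 by -0.06 and Tfam, the mitochondrial transcription factor, by -0.09. The score of the citric acid cycle had r = 0.99 with that of the ubiquitous subunits over 20 tumours, which share lines and array spread.

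Markers of other cell types read higher or lower with treatment as well. Over the lines together, all 13 epithelial markers were higher in treated tumours, at a median of 0.26, and all 10 colonocyte markers at 0.43. All 8 tested fibroblast markers were lower, at a median of -0.67, and so were 6 of 6 pericyte markers at -0.35 and 9 of 9 smooth muscle markers at -0.29. None of these passed. Single lines differed. In MTO68, 8 of 10 colonocyte markers were lower, at a median of -0.21. In MTO207, 6 were higher and 4 lower, at 0.09. All 10 were higher in MTO93, MTO140 and MTO54, at 0.91, 0.54 and 0.74. In MTO54, 9 of 9 smooth muscle markers were higher, at 0.32, while most were lower in each other line. The score over all members differed between treated and control tumours by 0.63 in MTO68 and -0.02 in MTO54. The mean log2 level of the fibroblast list ranged from 7.50 to 8.97 in control tumours and from 7.13 to 7.86 in treated tumours. The score of the ubiquitous subunits had r = 0.69 with the epithelial score and r = -0.06 with the fibroblast score. The part of cell makeup in the differences of respiratory chain genes was not tested.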

How the data were processed

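The values are log2 expression values per probe set as deposited by the authors, and per the submitters' processing notes RMA and the affy package made them (version: not given in the sources used here). In RMA the background is corrected, probes are quantile normalized and each probe set is summarised. Con was read as control and LY as galunisertib. Of 45141 probe sets in the table, 28898 had a single symbol in the platform annotation. A gene was tested when its value was above 4.16, the 25th percentile over the whole table, on 2 or more arrays. Members, lists and alternatives were chosen with earlier results of these data known.

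Fits were made with limma 3.58.1 (R 4.3.3) by lmFit and trended eBayes. The line was a block for the effect over 5 lines, and other comparisons had a mean for each of the 10 groups. P-values are two-sided and adjusted by Benjamini-Hochberg over all 15556 genes tested, at 0.05, and the scripts were tested on simulated data. Named genes were up to 10 per direction that passed in a comparison, else 5 of smallest p, plus a fixed set of subunits and isoforms, the 3 of largest and smallest SD of line means, and up to 4 passing or 2 of smallest p per list. Cyc1, Nrf1, Tfam and genes named for an alternative were chosen after their values were seen. Of the members, 16 were read from probe sets that may hybridise to related transcripts, among them Sdhd, Uqcrq, Cox8a and the pseudogene symbol Ndufs5-ps. Of 57 other member probe sets past the filter, 47 gave a treatment difference of the same sign. The number of arrays limits the precision. Alternatives covered the filter, the probe set, scaling, array weights, covariates, and omission of arrays and lines. Plots were drawn with matplotlib.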

Additional observations from a re-analysis of the deposited data

Results flagged for a closer look

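Single tumours stood apart from the other 9 of their treatment for 3 genes. Cox7a1 in MTO140 control replicate 1 read 6.92, with the next control at 5.57 and a gap of 0.62 of the whole range. Ndufaf8 in the same tumour read 8.06, with the next control at 7.66 and a gap of 0.53. Ndufb4 in MTO68 galunisertib replicate 1 read 8.82, with the next treated tumour at 7.84 and a gap of 0.53. Chance marks about 1 in 20 groups this way.

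In 15 of 87 members (17.2%) both treated tumours were above both controls in one line and below them in another, a pattern of 38.6% of all genes tested. Gaps were taken only over lines in which treated and control tumours did not overlap. The gap between the largest treated minus control difference and the smallest was 1.53 for Atp5pb and Ndufv3, 1.51 for Uqcrfs1, 1.5 for Ndufa4, 1.45 for Ndufa7, 1.4 for Ndufb2, 1.29 for Uqcrb, 1.1 for Ndufs4, 0.94 for Ndufa9 and 0.73 for Cox7a2. In these 10 genes the treated tumours of MTO54 were lower and those of MTO68 higher. For Ndufaf2 and Cox7c the gaps were 1.05 and 0.46, with treated tumours lower in MTO54 and higher in MTO207. Cox8c was higher in MTO54 and lower in MTO68 and MTO207, with a gap of 0.94. The gaps of Ndufaf5 and Ndufa4l2 were 0.47 and 0.34. The limma F test of a difference between lines gave adjusted p from 0.563 to 0.781 for these 15 genes, and single pairs of lines were not tested.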

How the results depend on the processing

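With 2 tumours per group and array spread that moved with line, the counts of calls depended on the setting. With array SD as a covariate the sign turned for 8 of 87 members over 5 lines, 25 in MTO140, 32 between MTO68 and MTO93, 47 between MTO54 and MTO207, 8 in MTO207 and 0 in MTO54 against parental LAKTP. Over 5 lines 35 of 40 alternatives called 0 members; quantile and cyclic loess normalization called 1, array weights 5, array SD as a covariate 4, and the covariate without MTO68 control replicate 2 called 3. In MTO68 the count of 2 became 1 with no filter, a stricter filter or median centring, 4 with the probe set of largest variance or without line MTO140, and 5 with the mean of probe sets. It was 0 with array weights, with array SD (also without MTO68 control replicate 2), hybridization control level or epithelial score as a covariate, and without line MTO93, MTO54 or MTO207. The F test over lines, 77, gave 47 with array SD, 27 with it and without MTO68 control replicate 2, 21 with the hybridization control level, 48 with the epithelial score, 49 without line MTO207 and 0 in control tumours only. For MTO140 the 13 became 5 (quantile), 3 (array weights, array SD), 2 (hybridization control level, and array SD without MTO68 control replicate 2) and 0 (epithelial score). For MTO54 the 3 became 1 (largest variance, median centring, epithelial score), 34 (quantile), 32 (cyclic loess), 6 (array weights), 41 (array SD), 11 (hybridization control level) and 34 (array SD without MTO68 control replicate 2). For MTO207 the 51 became 29 (cyclic loess), 4 (array SD), 5 (epithelial score) and 0 (hybridization control level, and array SD without MTO68 control replicate 2). Between MTO68 and MTO93 the 38 became 25 (cyclic loess), 5 (array SD), 1 (hybridization control level) and 0 (array SD without MTO68 control replicate 2), and between MTO54 and MTO207 the 0 became 1 (eBayes without trend) and 22 (array weights). Shares of all genes are not set beside the counts in this paragraph, and the causes were not tested.

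With each of the 20 arrays left out in turn the counts ranged from 0 to 75 in MTO68, 0 to 18 for a difference in effect between lines, 0 to 57 for MTO140, 0 to 36 for MTO54, 4 to 79 for MTO207, 15 to 73 between MTO68 and MTO93, 0 to 20 between MTO54 and MTO207, and 74 to 82 for the F test over lines. The count over 5 lines was 0 without any 1 array. Shares of all genes are not set beside the counts with an array left out. The count in MTO68 moved by over 1.5 times for 19 arrays, all except MTO68 galunisertib replicate 2. For MTO140 the arrays that moved it so were MTO68 control replicate 1 (57), MTO68 galunisertib replicates 1 (7) and 2 (4), MTO93 control replicates 1 (4) and 2 (3), both MTO93 galunisertib arrays (3 each), MTO140 control replicate 1 (0), MTO140 galunisertib replicates 1 (4) and 2 (1), and both MTO207 galunisertib arrays (8 each). For MTO54 they were MTO68 control replicates 1 (6) and 2 (36), MTO54 galunisertib replicate 2 (0), and MTO68 galunisertib replicate 1, MTO93 control replicate 2, both MTO93 galunisertib and both MTO54 control arrays (1 each). For MTO207 they were MTO68 control replicate 2 (79), MTO68 galunisertib replicate 1 (28), MTO93 control replicate 1 (25), MTO93 galunisertib replicates 1 (29) and 2 (30), MTO207 control replicates 1 (4) and 2 (26), and MTO207 galunisertib replicates 1 (6) and 2 (4). Between MTO68 and MTO93 they were MTO68 control replicates 1 (17) and 2 (73), MTO68 galunisertib replicate 1 (16), MTO93 control replicate 2 (15) and both MTO93 galunisertib arrays (21 each), and between MTO54 and MTO207 both MTO68 control arrays (20 each).

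Among the named genes and comparisons the signs of these turned. The difference of Cox8b over 5 lines became 0.01 with median centring, 0.0054 with array weights, 0.02 with array SD (also without MTO68 control replicate 2), 0.04 without line MTO207, 0.05 without lines MTO68 and MTO207, 0.03 without MTO207 control replicate 2 and 0.01 without MTO207 galunisertib replicate 1. That of Cox4i2 became 0.00099 with cyclic loess, 0.01 with array SD (also without MTO68 control replicate 2), 0.03 with the epithelial score, 0.00042 without MTO68 control replicate 2 (range -0.09 to 0.00042 over single arrays), 0.0086 without line MTO207 and 0.02 without lines MTO68 and MTO207. Cox6a2 became 0.00017 with array SD and 0.11 without lines MTO68 and MTO207. Cox7a1 became -0.06 with the epithelial score, -0.04 without MTO140 control replicate 2 (range -0.04 to 0.23 over single arrays) and -0.0011 without line MTO140. Ndufa4 became -0.14 without lines MTO68 and MTO207, and Cox8c between MTO68 and MTO93, a called difference, became 0.03 with array SD and without MTO68 control replicate 2. Array SD combined with the omission of MTO68 control replicate 2, and the omission of lines MTO68 and MTO207 together, were chosen after seeing the data.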
